A study of Mus musculus with 41 samples.

Results

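The histone mark H3K18la, lactylation of lysine 18 of histone H3, was compared between 2 kinds of mouse macrophage by the places where its CUT&Tag signal was called as a peak. CUT&Tag directs a transposase with an antibody, so that the DNA around a histone modification is cut out and sequenced. Of the 41 samples of the study, 3 carry this comparison, namely 1 of bone marrow-derived macrophages (BMDM) and 2 of post-ischemia macrophages (PIM). Both peak lists were merged on chromosomes 1 to 19, and each merged region was classed as BMDM-only, PIM-only or shared, where an overlap of 1 bp was enough to call a region shared. This gave 35047 regions, against 83131 regions when the H3K18la lists of all 8 cell types were merged.

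BMDM were grown from bone marrow precursors of C57BL/6 mice for 7 days with M-CSF, the growth factor that drives macrophage formation, and then kept for 24 h after seeding without added M-CSF. PIM were taken from the calf muscle of female C57Bl6/J mice aged 8 to 12 weeks, 2 days after the hindlimb was made ischemic, by digestion of the tissue and sorting for CD45+CD11b+F4/80+CD64+ cells. All samples were nuclei and are labelled as controls, with no altered gene in either group. The comparison thus sets cultured cells against cells sorted from injured tissue, and culture, tissue, dissociation and sorting cannot be told apart in it. The authors pooled the coverage of the PIM samples before peak calling, so each group is 1 peak list. No spread between replicates can be computed and no test of the cell types was possible. Intervals below are 95% Wilson intervals and cover counting error only.

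Lactylation is a histone post-translational modification (hPTM) whose acyl group derives from lactate, the end product of glycolysis, and it was first described in activated macrophages, which are strongly glycolytic. H3K18la is found at active promoters and enhancers, often with H3K27ac, an acetylation that marks both, while H3K4me3 marks promoters and H3K27me3 marks genes silenced by Polycomb. Monocytes enter ischemic muscle from the blood and turn into macrophages that first clear debris and later help the tissue to rebuild, whereas M-CSF cultures give a uniform, resting population.

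Single stretches of DNA around the signal maximum are printed as examples, and so few windows do not describe a class. All are from the mm10 genome, plus strand, 5′ to 3′, as 300-bp windows centred on the peak maximum or, where an exon lay in the window, the exon-free stretch of it. Capitals mark a match to the letters of PU.1, AP-1, IRF, C/EBP or RUNX, factors that bind macrophage enhancers. The largest BMDM-only region lay between genes at chr6:101555029-101557606, and its window chr6:101555275-101555574, 177528 bp from the TSS of Pdzrn3, held no match. Windows with fewer than 100 exon-free bases were passed over at promoters. The first BMDM-only promoter region then was at Ms4a6b, a gene of a family of leukocyte membrane proteins, with the window chr19:11513493-11513792, intergenic, 2869 bp from the TSS and without a match.
BMDM-only, Pdzrn3: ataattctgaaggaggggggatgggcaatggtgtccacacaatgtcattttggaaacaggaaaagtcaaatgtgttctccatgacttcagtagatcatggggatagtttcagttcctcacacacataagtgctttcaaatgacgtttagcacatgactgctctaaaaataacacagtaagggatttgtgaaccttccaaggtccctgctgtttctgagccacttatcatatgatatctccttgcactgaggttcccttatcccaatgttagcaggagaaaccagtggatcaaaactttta
BMDM-only, Ms4a6b: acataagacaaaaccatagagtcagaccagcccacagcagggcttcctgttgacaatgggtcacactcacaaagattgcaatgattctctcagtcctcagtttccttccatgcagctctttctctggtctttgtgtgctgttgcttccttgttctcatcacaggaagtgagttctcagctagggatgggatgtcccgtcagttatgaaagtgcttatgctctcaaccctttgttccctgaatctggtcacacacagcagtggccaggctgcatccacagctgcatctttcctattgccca

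The largest PIM-only region covered the promoter and part of the body of Slc29a3, which encodes a lysosomal nucleoside transporter (chr10:60737869-60753174). Its window, chr10:60744649-60744948, lay in an intron 7983 bp from the TSS and held an AP-1 match at bases 126 to 132. The window of the next largest PIM-only region at a promoter, chr3:90612688-90612881, lay 44 bp from the TSS of S100a6, a calcium-binding protein gene, and held a RUNX match at bases 128 to 134. F13a1, the factor XIII subunit of monocytes, is shown as a PIM-only monocyte gene, with the window chr13:37048931-37049140 in an intron, 106 bp from the TSS at the maximum, and no match. Spi1, which encodes PU.1, the factor that defines the macrophage lineage, is shown for the shared class. Its intronic window chr2:91086429-91086728, 4171 bp from the TSS, held an AP-1 match at bases 149 to 155. The F13a1 and Spi1 windows were chosen after their values were seen.
PIM-only, Slc29a3: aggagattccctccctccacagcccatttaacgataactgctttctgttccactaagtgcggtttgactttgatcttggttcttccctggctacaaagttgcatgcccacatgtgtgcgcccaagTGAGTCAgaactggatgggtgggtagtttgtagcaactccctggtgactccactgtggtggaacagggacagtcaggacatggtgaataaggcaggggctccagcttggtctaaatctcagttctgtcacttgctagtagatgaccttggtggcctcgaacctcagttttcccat
PIM-only, S100a6: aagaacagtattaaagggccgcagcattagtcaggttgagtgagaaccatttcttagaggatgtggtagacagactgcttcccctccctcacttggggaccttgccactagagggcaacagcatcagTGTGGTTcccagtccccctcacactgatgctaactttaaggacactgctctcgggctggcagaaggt
PIM-only, F13a1: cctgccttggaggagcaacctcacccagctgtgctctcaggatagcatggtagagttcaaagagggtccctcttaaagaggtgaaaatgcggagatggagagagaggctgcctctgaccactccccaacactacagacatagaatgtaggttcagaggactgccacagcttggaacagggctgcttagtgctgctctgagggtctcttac
shared, Spi1: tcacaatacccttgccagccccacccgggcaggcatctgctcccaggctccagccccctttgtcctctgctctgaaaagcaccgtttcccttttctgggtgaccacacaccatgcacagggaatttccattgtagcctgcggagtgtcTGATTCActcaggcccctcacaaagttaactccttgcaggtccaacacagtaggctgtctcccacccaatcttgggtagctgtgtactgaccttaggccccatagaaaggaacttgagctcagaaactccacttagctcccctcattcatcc

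The lists differed in size and in shape. The BMDM list held 19274 peaks over 22.3 Mb, with a median width of 919 bp and a median coverage of 44.2 fragments per base within a peak. The PIM list held 31568 peaks over 68.0 Mb, with a median width of 1618.5 bp and a median coverage of 18.7. PIM peaks were thus more numerous, wider and lower, while the fragment coverage summed over all peaks was 1452 Mb in BMDM and 1923 Mb in PIM. Coverage was not scaled for sequencing depth, which was not analysed here. The lowest mean coverage of a called peak was 10.8 in BMDM and 5.72 in PIM, so a place without a BMDM call may still carry signal at the level of weak PIM peaks. Signal is therefore ranked only within a list, from 1 for the peak with the largest total signal to 19274 in BMDM and 31568 in PIM. Total signal grows with width, so a gene's places in the lists describe each list and do not measure a change between the cell types. Among the 3666 genes with a promoter peak in both lists, 76.1% stood nearer the top, as a percent of the list, in PIM (median place 23.5%) than in BMDM (46.2%), and the places of single genes below are read against that share.

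Of the merged regions, 12866 were shared (36.7%, interval 36.2 to 37.2), 18492 were PIM-only (52.8%, 52.2 to 53.3) and 3689 were BMDM-only (10.5%, 10.2 to 10.9). Shared regions were also the widest, with a median of 2334.5 bp against 1408 bp for PIM-only and 684 bp for BMDM-only regions. In bases, the shared regions held 39.1 Mb, the PIM-only regions 30.2 Mb and the BMDM-only regions 2.73 Mb. Most of what was called in BMDM was therefore called in PIM too. PIM peaks overlapped 15585 of the 19274 BMDM peaks (80.9%, 80.3 to 81.4), which held 92.5% of the BMDM in-peak signal. In the other direction, 13076 of 31568 PIM peaks were overlapped (41.4%, 40.9 to 42.0), with 71.5% of the PIM signal. Bases called in both lists came to 18.3 Mb, which was 82.0% of the BMDM bases and 26.9% of the PIM bases.

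The strength of a peak went with its chance of being shared. Among the 5000 BMDM peaks of largest signal 97.1% were overlapped by a PIM peak, and the share fell through 88.8% and 74.4% to 60.1% for ranks 15001 to 19274. Among the 5000 largest PIM peaks 86.7% were overlapped by a BMDM peak, against 11.99% for ranks 30001 to 31568. In 10648 of the shared regions (82.8%) 1 BMDM peak met 1 PIM peak, and in 2013 a PIM peak spanned several BMDM peaks. Over those 10648 regions the total signal of the 2 lists had a Spearman correlation of 0.43, that of mean coverage was 0.28 and that of width was 0.38. These correlations across regions share mappability and base composition and describe the lists.

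With 5000 peaks taken from each list, the classes came closer in size: 2647 of 6862 regions were shared (38.6%, 37.4 to 39.7), 2336 were PIM-only (34.0%, 32.9 to 35.2) and 1879 were BMDM-only (27.4%, 26.3 to 28.5). The last BMDM peak inside this limit had a total signal of 66741, as had the first outside it, and in PIM the values were 87633 and 87632. Most of these one-sided regions were weaker peaks of the other list. Of the 1879 BMDM-only regions, 1734 (92.3%, 91.0 to 93.4) overlapped a peak of the full PIM list, and of the 2336 PIM-only regions, 1670 (71.5%, 69.6 to 73.3) overlapped one of the full BMDM list. This left 145 strong BMDM regions without any PIM peak and 666 strong PIM regions without any BMDM peak. When the PIM list was instead cut at its strongest peaks to the number of bases in the BMDM list, the order of the classes turned over, with 75.7% BMDM-only, 2.77% PIM-only and 21.6% shared regions. The sizes of the one-sided classes thus depend on how far down each list is read.

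**Figure D1:**
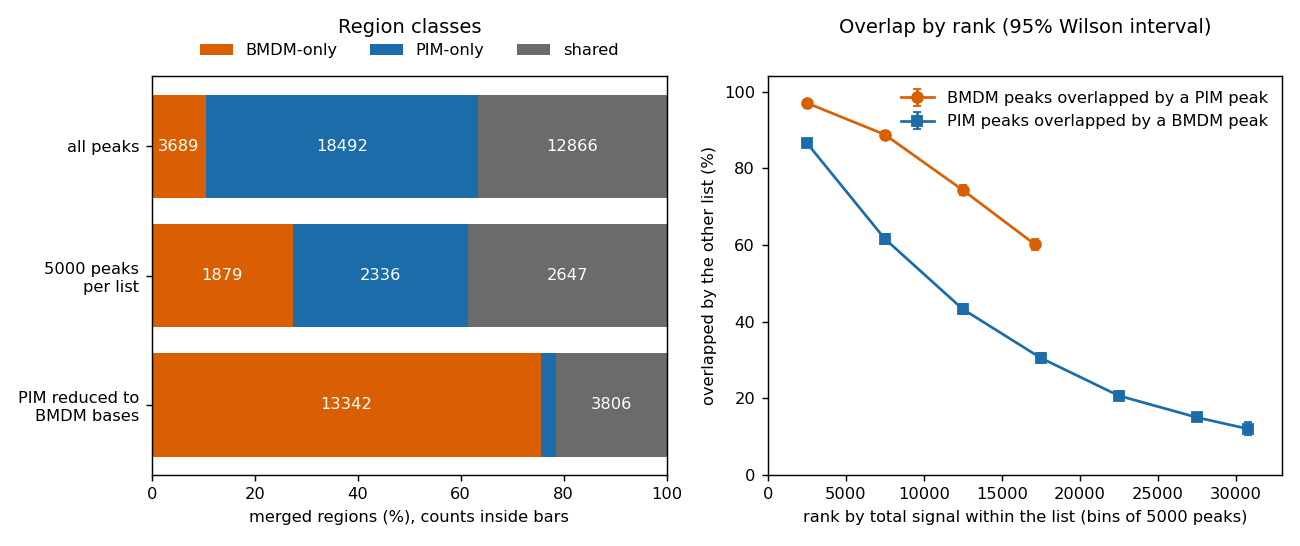
Percent of regions of each class in the full lists, with 5000 peaks per list and with the PIM list cut to the BMDM bases (left, counts in the bars), and percent of peaks overlapped by the other list along the signal rank (right, 95% Wilson intervals). Overlap is highest at the strong end of both lists (97.1% in BMDM and 86.7% in PIM) and falls with rank, further in PIM than in BMDM.

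The classes lay at different distances from genes. A promoter, taken as 2000 bp on each side of a TSS, was overlapped by 780 of 3689 BMDM-only regions (21.1%, 19.9 to 22.5), by 7319 of 18492 PIM-only regions (39.6%, 38.9 to 40.3) and by 4963 of 12866 shared regions (38.6%, 37.7 to 39.4). PIM-only regions stood above BMDM-only regions in this share in all 7 settings tried, among them the 5000-peak lists with 47.9% against 25.8%. BMDM-only regions were more often in introns (36.1% against 27.9%) and between genes (37.5% against 25.9%). The median distance to the TSS of a protein-coding gene was 18.9 kb for BMDM-only, 8.52 kb for PIM-only and 10.5 kb for shared regions. BMDM-only regions were also the narrowest, and the part of width in these shares was not tested.

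H3K27ac was profiled in both cell types (1 sample each), which gives a readout that the classes did not use. At shared regions a BMDM H3K27ac peak lay on 61.0% (60.2 to 61.9) and a PIM H3K27ac peak on 69.0% (68.2 to 69.8), and 52.3% carried both. At PIM-only regions PIM H3K27ac was called on 39.8% (39.1 to 40.5) and BMDM H3K27ac on 19.96% (19.4 to 20.5). At BMDM-only regions the values were lower and closer together, with BMDM H3K27ac on 15.7% (14.6 to 16.9) and PIM H3K27ac on 10.8% (9.88 to 11.9). A narrow region has less room for an overlap, and the part of width in the differences between classes was not tested. H3K27ac of the same cell type was thus more frequent in both one-sided classes, but most BMDM-only regions (80.7%) and PIM-only regions (58.0%) had no H3K27ac peak from either cell type. For BMDM-only regions the excess of 4.85 percentage points went to 0.24 with the H3K27ac lists cut to equal bases, and to -1.31 for the BMDM-only class formed after the PIM H3K18la list was cut to the BMDM bases.

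Among the 5000-peak classes, which hold the strong peaks, H3K27ac was common everywhere. BMDM-only regions carried BMDM H3K27ac in 71.9% (69.8 to 73.9) and PIM H3K27ac in 56.3% (54.0 to 58.5). PIM-only regions carried PIM H3K27ac in 91.5% (90.3 to 92.6) and BMDM H3K27ac in 59.6% (57.6 to 61.6). Shared regions reached 92.6% and 95.7%. Median widths were 1508 bp in BMDM-only, 3929.5 bp in PIM-only and 4745 bp in shared regions, and the part of width was not tested. H3K4me3, profiled here in PIM, was called on 80.2% of the PIM-only, 58.4% of the BMDM-only and 90.9% of the shared regions. In the full lists the silencing mark H3K27me3 was called on few regions of every class. Its BMDM list, which covers 3.98% of the bases of these chromosomes, met 2.03% of BMDM-only, 3.93% of PIM-only and 1.55% of shared regions. Its PIM list, which covers 4.11% of the bases, met 5.20%, 8.87% and 6.19%. No depletion of the mark is read from these shares.

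H3K18la lists of 6 other cell types showed how far the regions were particular to macrophages. These were gastrocnemius muscle (GAS), myoblasts (MB), myotubes (MT), adipocytes and embryonic stem cells in serum or 2i medium. None of these 6 lists had a peak on 53.4% (51.8 to 55.0) of BMDM-only, 34.2% (33.6 to 34.9) of PIM-only and 25.4% (24.6 to 26.1) of shared regions. GAS, a calf muscle like the tissue PIM were sorted from, met 34.8% of PIM-only, 21.3% of BMDM-only and 48.7% of shared regions. Myotubes met 35.6%, 26.02% and 51.7% of them. Adipocytes met 28.4%, 14.8% and 36.3% of them, and stem cells in 2i medium 26.8%, 13.7% and 28.2%. In each of the 6 lists the overlap was thus higher for PIM-only than for BMDM-only regions, which was not particular to muscle. It was higher still for regions that both macrophages carried. Width differs in the same order, and the part of width or of muscle DNA in these shares was not tested.

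**Figure D2:**
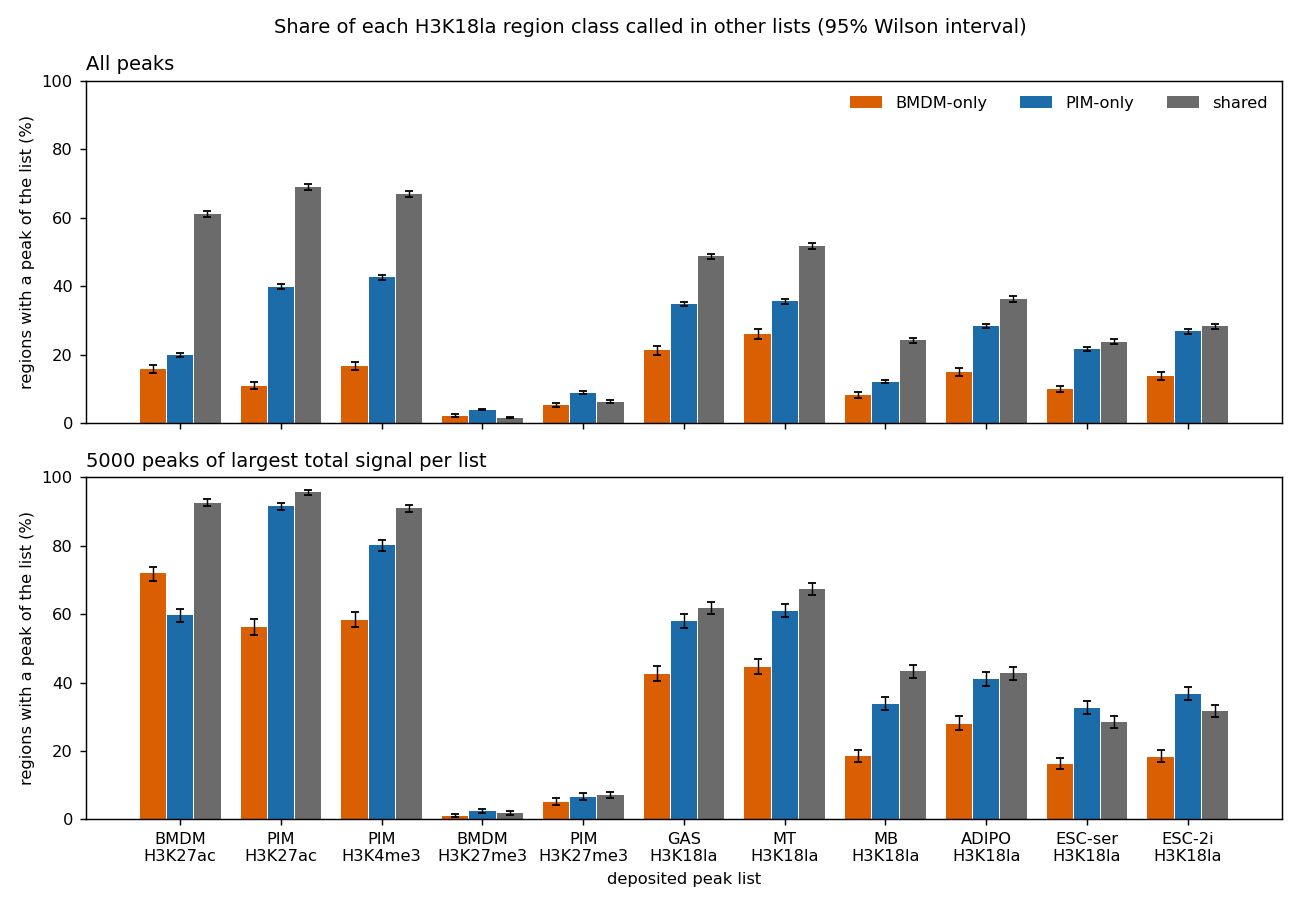
Percent of regions of each class that overlapped a peak of the other marks and of H3K18la in other cell types, with 95% Wilson intervals. H3K27ac of the same cell type is the more frequent in each one-sided class (39.8% against 19.96% in PIM-only, 15.7% against 10.8% in BMDM-only), and shared regions are highest for H3K27ac and H3K4me3.

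The largest regions of each class named different kinds of place. The 6 largest BMDM-only regions lay away from promoters, in an intron of Phlpp1 (a phosphatase of Akt), over an exon of Abcb1a (a drug efflux pump), or between genes. The nearest TSS of the intergenic ones was 177132 bp away for Pdzrn3, 174788 bp for Stt3b, 97053 bp for Ccn6 and 9588 bp for Lair1 (an inhibitory collagen receptor of leukocytes). The first of them, on the side of Pdzrn3, had a total signal of 248427 and rank 709 of the BMDM list. Of these 6, 5 carried BMDM H3K27ac and 0 carried PIM H3K27ac. The 6 largest PIM-only regions were at Slc29a3, at S100a5 and S100a6, between genes 20059 bp from the TSS of Rbm38, at S1pr3 (a sphingosine-1-phosphate receptor), at Cenpo, and at Mcat with Tspo (a mitochondrial outer membrane protein of steroid transport). The first, at Slc29a3, was 15306 bp wide with a signal of 632600 and rank 161 of the PIM list. All 6 carried PIM H3K27ac, 3 carried BMDM H3K27ac, and 5 lay at promoters.

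The 6 largest shared regions were of another sort. The first, chr2:98666237-98667339 at the predicted gene Gm10800, held a signal of 74390353 in BMDM and 23183299 in PIM within 1103 bp. All 6 were also called in the 6 other H3K18la lists and in the H3K27me3 lists of both macrophages. The 10 strongest peaks held 12.1% of the BMDM in-peak signal and 3.94% of that of PIM. Over all classes 43 regions were called in every one of these lists, and leaving them out moved no class share by its counting error. Without them, the 6 leading shared regions were still called in 5 or 6 of the 6 other H3K18la lists, so they too were places called in nearly every cell type. Of these 6, 2 covered Sfi1, and the others overlapped no protein-coding gene and lay 29964 to 84409 bp from the nearest TSS of one.

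Strong regions that the other list lacked entirely were fewer in BMDM than in PIM, and their H3K27ac shares differed. The lists differ in reach, since the PIM list covers 68.0 Mb and the BMDM list 22.3 Mb. The BMDM regions were also narrower, with a median of 1380 bp against 3816 bp. The part of reach and width in these counts and shares was not tested. Of the 145 BMDM regions, 52.4% (44.3 to 60.4) carried BMDM H3K27ac and 6.90% (3.79 to 12.2) carried PIM H3K27ac. Of the 666 PIM regions, 89.0% (86.4 to 91.2) carried PIM H3K27ac and 39.9% (36.3 to 43.7) carried BMDM H3K27ac. The BMDM regions were at promoters in 18.6% (13.1 to 25.7) and in none of the 6 other cell types in 45.5% (37.6 to 53.6). The PIM regions were at promoters in 49.5% (45.8 to 53.3) and in none of the others in 16.8% (14.2 to 19.8). After the 6 largest, the BMDM regions had as their nearest TSS those of Clec9a (a receptor for dead cells best known from dendritic cells), Mamdc2, Apbb2, Gab2 (an adaptor of cytokine receptors), Ms4a6b, Phc2, Cd72 and Gpr65 (a receptor that senses acid). The PIM regions covered promoters of Plxnd1, F13a1, Crip1, Ccr2 (the receptor that draws monocytes out of the marrow and into inflamed tissue), Selplg (the P-selectin ligand used to roll on vessel walls) and S100a4. Others lay 31135 bp from the TSS of Il6st (gp130, the shared receptor of the interleukin-6 family) and 10739 bp from that of Trem1 (which amplifies inflammation). The PIM names were picked from the 666 regions after their values were seen, so they do not describe these regions as a set. The nearest TSS that recurred most among the PIM regions were those of Atp2b1, Fam53b, Flrt3, Foxp1 and Tiam1, with 4 regions each.

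Of 20807 protein-coding genes, 3666 (17.6%) had an H3K18la peak over the promoter in both lists, 4365 (21.0%) in PIM alone, 285 (1.37%) in BMDM alone and 12491 in neither. With 5000 peaks per list the shares were 3.40% for both, 4.58% for PIM alone and 1.52% for BMDM alone. With the PIM list cut to the BMDM bases they were 5.85% for both, 1.17% for PIM alone and 13.1% for BMDM alone. A call in PIM alone is therefore common in the full lists and a call in BMDM alone is rare, and the cut to equal bases turns this over. Of the 24 gene lists, 18 had more calls in PIM and 0 more in BMDM with the full lists. With equal bases 0 had more in PIM and 18 more in BMDM, and with 5000 peaks per list the counts were 14 and 1. Gene bodies with 10 kb on each side held a BMDM-only region in 10.1%, a PIM-only region in 44.2% and a shared region in 30.7% of genes. The gene lists below are described by their counts beside these shares, and nothing particular to a list is drawn from them.

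Of 18 macrophage identity genes, 17 had a promoter peak in both lists and Maf, a transcription factor of mature macrophages, had one in PIM alone (rank 10561). With 5000 peaks per list 7 were called in both, 2 in BMDM alone, 3 in PIM alone and 6 in neither. With equal bases 8 were called in both and 9 in BMDM alone. Spi1 ranked 97 in BMDM (signal 628279) and 334 in PIM (468185). Csf1r, the M-CSF receptor, ranked 362 (354506) and 329 (472039), and Runx1 ranked 336 (367436) and 606 (352918). These 3 genes stood near the top of both lists. Cd14, the co-receptor for bacterial lipopolysaccharide, ranked 242 in BMDM and 1048 in PIM. The genes of the sorting markers were present in both: Ptprc (CD45) ranked 1660 and 1523, Itgam (CD11b) 1450 and 5455, Adgre1 (F4/80) 15141 and 6538, and Fcgr1 (CD64) 3620 and 4804 in BMDM and PIM. All 17 genes with both calls also carried H3K27ac in both cell types.

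Markers of other cell types were mostly uncalled except for those of neutrophils, but 60.0% of all protein-coding genes were called in neither list too. Of the neutrophil markers 63.6% were called in PIM and 36.4% in BMDM. Of 11 skeletal muscle genes, Mylpf, a fast myosin light chain, had a peak in both lists (ranks 7058 and 18975, the top 36.6% and 60.1%) and the other 10 had none in either, although 8 of these 10 were called in GAS. Of 8 fibroblast and 4 mast cell genes, 0 were called. Of 9 T and NK cell genes only Cd3d was called (both lists), and of 9 endothelial genes Pecam1 and Cdh5 were called in both and Vwf in PIM alone. Ms4a1, the B cell antigen CD20, was called in both, at rank 711 in PIM and 6966 in BMDM. It lies in a cluster of Ms4a genes, some of which macrophages express, and the part of B cells was not tested. Dendritic cell genes gave PIM calls at 2 of 5, Xcr1 and Batf3. Of 11 neutrophil genes, S100a8, Csf3r, Ltf and Mmp8 were called in both, Ly6g, Mpo and Cxcr2 in PIM alone and 4, among them S100a9 and Elane, in neither. The PIM calls at Ly6g, Mpo and Cxcr2 ranked between 12081 and 22499 and had no H3K27ac, and the part of neutrophils in the PIM list was not tested.

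**Figure D3:**
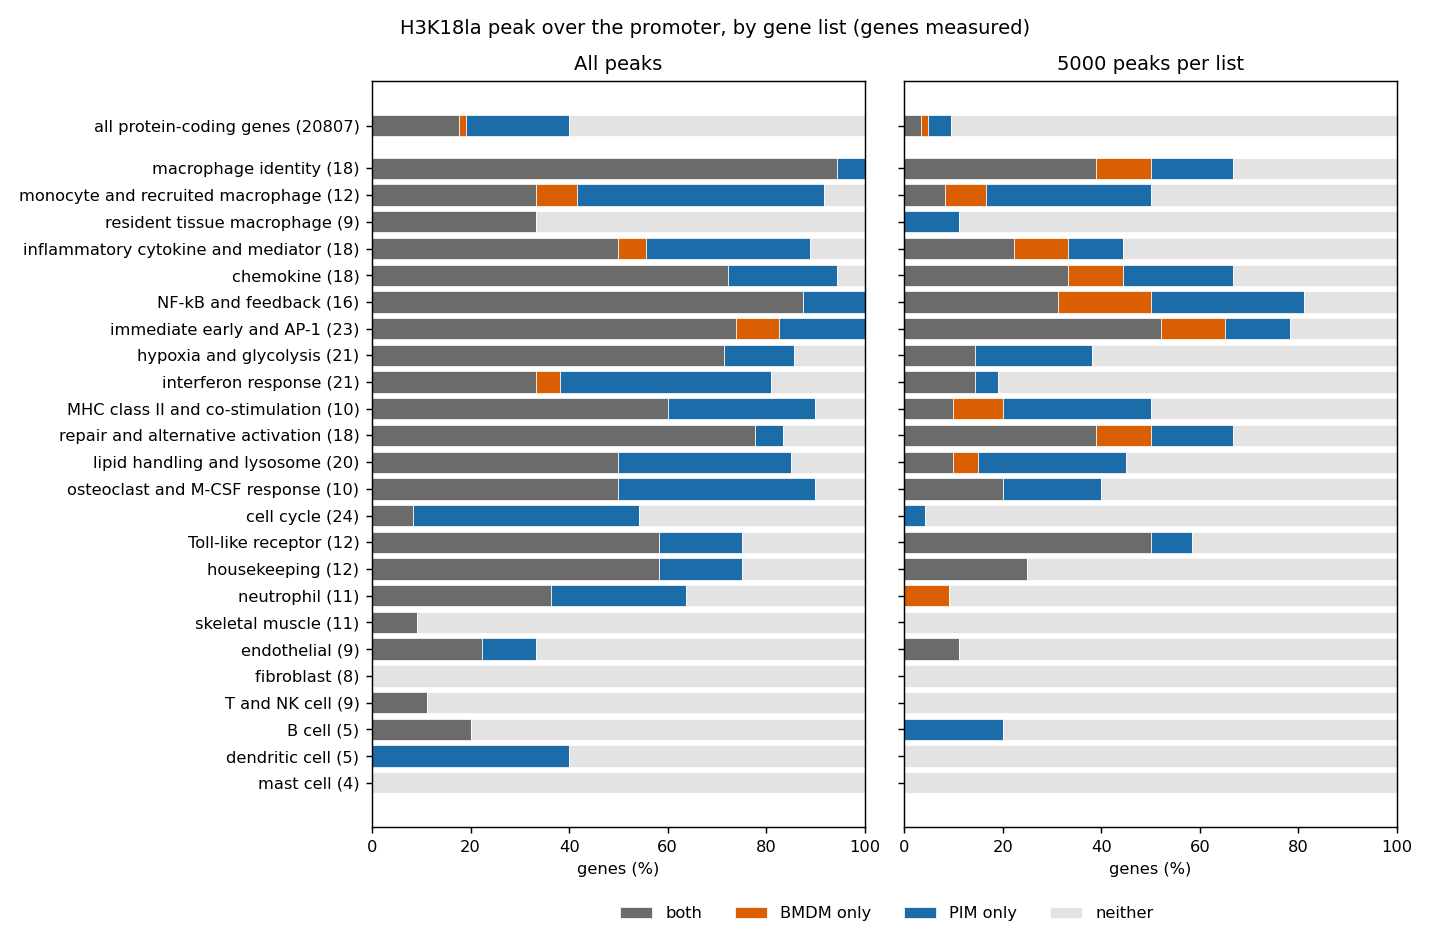
Percent of the genes of each list with an H3K18la peak over the promoter in both lists, BMDM alone, PIM alone or neither, for all peaks and for 5000 peaks per list, with all protein-coding genes on top. Macrophage identity genes were called in both lists in 17 of 18 cases, monocyte genes in PIM alone in 6 of 12, and muscle, fibroblast and mast cell genes almost never.

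Genes of blood monocytes and freshly recruited macrophages were split. Of 12, 6 were called in PIM alone, namely Ccr2, Ly6c2, F13a1, Vcan, Fn1 and S100a4, with 4 in both, Itgal in BMDM alone and Chil3 in neither. With equal bases 4 were called in each list alone and 1 in both, which makes 5 of 12 in each cell type. In PIM, F13a1 ranked 699 (signal 327247), Ccr2 ranked 744 (316390), S100a4 ranked 1371 (221873) and Vcan, a matrix proteoglycan, ranked 1518 (208386). Their promoters held no BMDM peak at any rank. The Ccr2 peak ran from 509 bp before to 7183 bp after the gene start. Around it, within 40 kb, the BMDM list had 8 peaks and the PIM list 9, so the locus was called in both and the gene itself in PIM. Fn1, whose peak ranked 7192, and Ly6c2, whose peak ranked 13882, were weaker. Cx3cr1, the fractalkine receptor of patrolling monocytes and tissue macrophages, ranked 4583 in BMDM (top 23.8% of the list) and 14692 in PIM (top 46.5%). Of 9 genes typical of resident tissue macrophages, Mrc1, Folr2 and Cd163 were called in both and 6, among them Lyve1 and Timd4, in neither. The largest Cd163 promoter peaks of the lists did not overlap, and that of PIM ranked 31338, close to the end of the list.

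**Figure D4:**
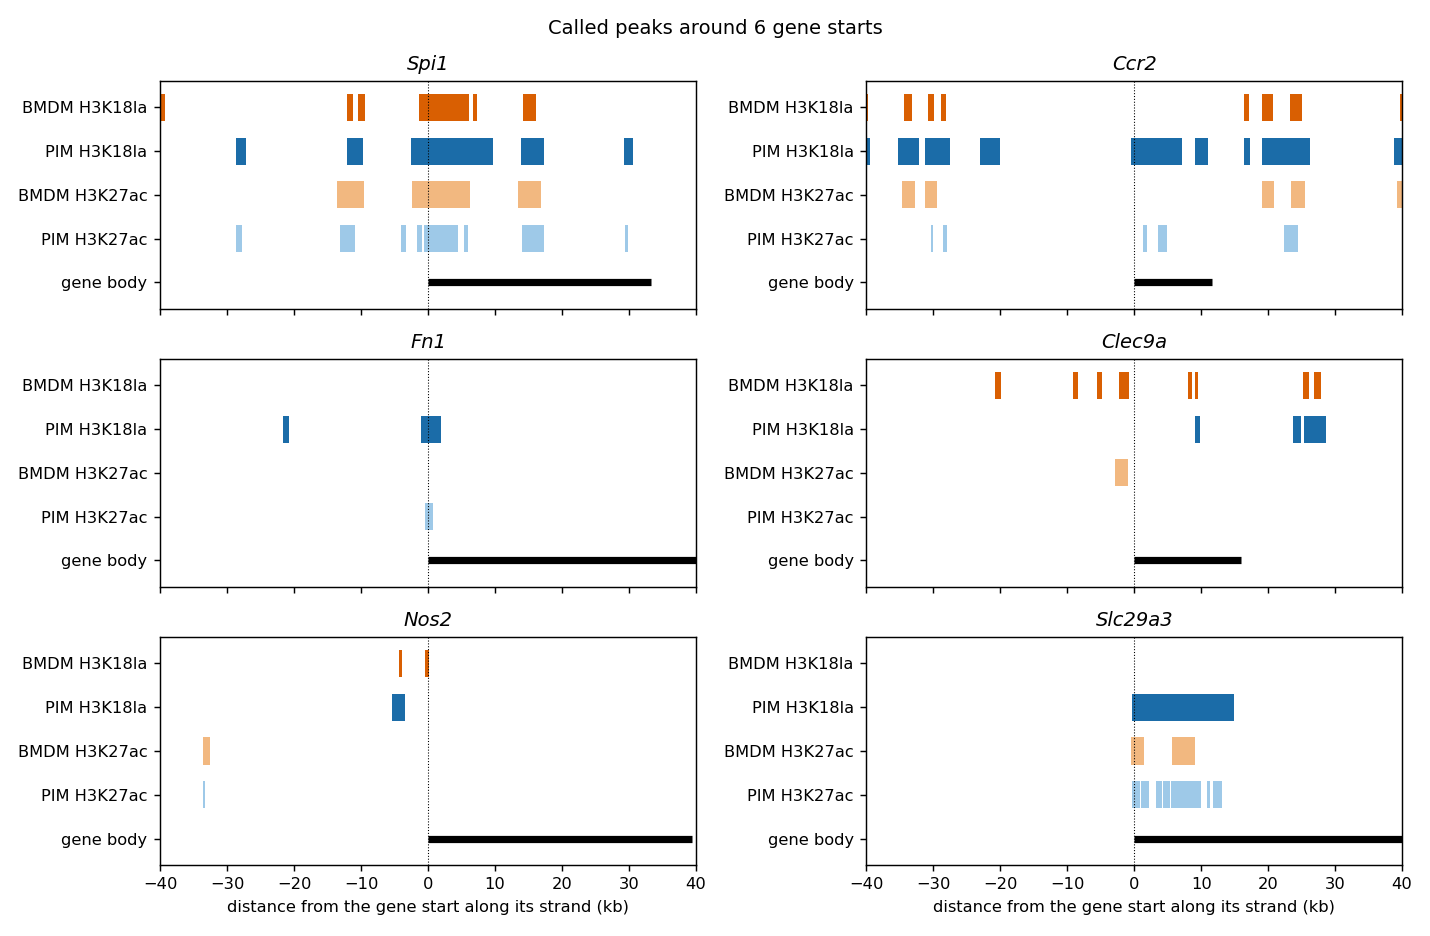
Peaks of H3K18la and H3K27ac in BMDM and PIM around 6 genes, drawn as boxes by distance from the gene start in kb, 40 kb on each side and in the direction of transcription. Spi1 is covered in both, Ccr2, Fn1 and Slc29a3 have a PIM peak at the gene start that BMDM lacks, and Clec9a and Nos2 a BMDM peak near the gene start that PIM lacks.

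Of 18 inflammatory cytokines and mediators 9 were called in both lists, 6 in PIM alone, 1 in BMDM alone and 2 in neither. With 5000 peaks per list 4 were called in both, 2 in each list alone and 10 in neither. With equal bases 4 were called in both, 1 in PIM alone and 6 in BMDM alone. Nlrp3, the sensor of the inflammasome, ranked 60 in BMDM (signal 750776) and 282 in PIM (504279). Il1b, the cytokine that the inflammasome releases, ranked 843 in BMDM (225464) and 12237 in PIM (37432). Osm, oncostatin M, ranked 1411 in BMDM (166263) and 189 in PIM (584805), and the anti-inflammatory genes Il10 and Il1rn ranked 2293 and 4686 in BMDM and 758 and 532 in PIM. As a place within its own list, Il1b was in the top 4.37% in BMDM and the top 38.8% in PIM. Osm was in the top 7.32% and 0.599%, Il10 in the top 11.9% and 2.401%, and Il1rn in the top 24.3% and 1.69% in BMDM and PIM. Other inflammatory cytokines went both ways. Tnf was in the top 42.3% and 15.4%, Il18 in the top 18.6% and 16.5%, and Il6 in the top 36.8% and 84.7%. Nos2, the inducible nitric oxide synthase, was the 1 gene called in BMDM alone, with a peak of 576 bp at rank 19064, close to the end of the list, and no H3K27ac. Lif, which signals through gp130 like Osm, was called in PIM alone (rank 3471), as were Ptgs2, Csf1, Csf3, Il12b and Il23a.

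Chemokine genes were called in both lists in 13 of 18 cases. Cxcl2, which attracts neutrophils, ranked 718 in BMDM and 838 in PIM, and Ccl3 ranked 1549 and 4354. Ppbp (rank 1316), Ccl5 (4456), Cxcl10 (8626) and Ccl24 were called in PIM alone. The Ppbp peak is the one that also covers the promoter of its neighbour Pf4, which was called in both lists, and it meets the BMDM peak there (rank 745), so the region itself is shared. The Ccl5 peak also meets a BMDM peak further along, and Ccl5 and Ccl24 were called in neither list with promoters of 1000 bp. Of 16 genes of NF-kB and its feedback, 14 were called in both. With 5000 peaks per list, Tnfaip3, Birc3, Bcl3, Zc3h12a and Map3k8 were called in both. The subunit genes Rel, Relb and Nfkb2 were called in BMDM alone there, with ranks 2883, 2856 and 3675 in BMDM and 7729, 11575 and 6215 in PIM. For Nfkb2 these are nearly the same place in each list, the top 19.1% and the top 19.7%, so its call in BMDM alone follows from the 5000-peak limit. The inhibitors Nfkbia and Nfkbie, with Nfkb1, Tnip1 and Traf1, were called in PIM alone there. Nfkbia, whose product holds NF-kB in the cytoplasm, ranked 14581 in BMDM (23855) and 2013 in PIM (172530).

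Among the lists, which differ in size, immediate early genes, which cells switch on within minutes of a stimulus, had the largest number called in both with 5000 peaks per list. Of 23, 17 were called in both full lists and 12 with 5000 peaks per list. Klf6 ranked 175 in BMDM and 22 in PIM, Zfp36, which destabilises cytokine mRNAs, ranked 34 and 92, and Junb ranked 137 and 268. Jun, a subunit of AP-1, ranked 361 and 596. Fosb (rank 5202) and Jund (6670) were called in BMDM alone, and Fosl1 (4710), Egr2 (4331), Egr3 and Ier5 in PIM alone. Of 12 Toll-like receptor genes and adaptors 7 were called in both full lists and 6 with 5000 peaks per list, a similar share. Tlr2 ranked 334 in BMDM and 471 in PIM, and Tlr4, the lipopolysaccharide receptor, 2430 and 281.

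Ctsb and Ctsd, the genes of cathepsins B and D that degrade proteins in lysosomes, ranked 5623 and 5438 in BMDM (60199 and 61987) and 62 and 105 in PIM (932795 and 752783), which is the top 29.2% and 28.2% of the BMDM list and the top 0.196% and 0.333% of the PIM list. Of 20 genes of lipid handling and lysosome, 10 were called in both, 7 in PIM alone and 0 in BMDM alone. With equal bases 5 were called in both, 1 in PIM alone and 5 in BMDM alone. The 7 PIM-only calls of the full lists were Abcg1, Apoe, Srebf1, Scd2, Lpl, Pparg and Lipa, of which Lipa, the lysosomal acid lipase, was the strongest at rank 1451, and the Apoe peak met a BMDM peak further along. Cd36, a scavenger receptor for lipids, ranked 1026 and 146, and Plin2, which coats lipid droplets, 1741 and 274 in BMDM and PIM. Abca1, a cholesterol exporter, ranked 1884 in BMDM (top 9.77%) and 6185 in PIM (top 19.6%). Hmox1, which degrades heme, ranked 8305 in BMDM (42201) and 185 in PIM (594113). Its fold between the lists cannot be read, since the signal of the lists is not on one scale.

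Of 18 genes of repair and alternative activation, 14 were called in both and Clec10a in PIM alone. Lgals3 (galectin-3) was among the strongest peaks of either list, at rank 732 in BMDM and 16 in PIM. Il4ra, the interleukin-4 receptor, ranked 2154 and 222, Mrc1, the mannose receptor, 6294 and 1308, and Trem2, a lipid receptor, 3176 and 1003. Mmp12, the macrophage elastase, ranked 1756 in BMDM (top 9.11%) and 15376 in PIM (top 48.7%).

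Hypoxia and glycolysis genes bear on lactate, the source of the mark. Of 21, 15 were called in both, 3 (Hk1, Bnip3 and Car9) in PIM alone and 0 in BMDM alone. With equal bases 5 were called in both, 1 in PIM alone and 10 in BMDM alone. Hk1, a hexokinase, ranked 1497 in PIM (210451). Pkm, the pyruvate kinase, ranked 4567 in BMDM and 675 in PIM, Slc2a1, the glucose transporter GLUT1, 8507 and 1916, and Ndrg1 15783 and 2415. Ldha, which makes lactate, ranked 6731 and 6991 (top 34.9% and 22.1%), and Hif1a and Vegfa ranked 7584 and 6790 in BMDM (top 39.3% and 35.2%) and 19763 and 29532 in PIM (top 62.6% and 93.6%). Housekeeping genes were called in both in 7 of 12 cases, with Gapdh at ranks 6438 and 5442 and Actb at 434 in BMDM and 3180 in PIM.

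Of 21 interferon genes 9 were called in PIM alone, among them Isg15, Irf7, Irf1, Mx1 and Oas2, and 7 were called in both. The PIM-only calls ranked between 5013 and 24635, so they were of middle or low strength, and 8 of the 9 promoters carried BMDM H3K27ac. With 5000 peaks per list 1 of 21, Rsad2, was called in PIM alone. With the PIM list cut to the BMDM bases, 8 of 21 were called in BMDM and 4 in PIM, so the excess of PIM calls was not kept. Of 10 genes of MHC class II and co-stimulation, Ciita, H2-DMb1 and Cd40 were called in PIM alone, of which Cd40 was the strongest (rank 3846), and with the PIM list cut in this way 6 of 10 were called in BMDM and 3 in PIM. Of 10 genes of the osteoclast and M-CSF response, 4 were called in PIM alone (Acp5, Dcstamp, Mitf and Tnfrsf11a) and 5 in both, and with equal bases 0 were called in PIM alone, 3 in BMDM alone and 2 in both. Cell cycle genes were called in PIM alone in 11 of 24 cases, in both in 2 and in neither in 11. With 5000 peaks per list 1 was called in PIM alone, and with equal bases 0 were called in PIM alone, 1 in BMDM alone and 1 in both. The 11 PIM-only calls of the full lists had ranks from 12922 to 27274, and 10 of them carried PIM H3K27ac.

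Genes with many one-sided regions were often long. Gab2 had 8 BMDM-only regions against 1 PIM-only and 4 shared, and Phlpp1 had 8 against 2 and 3. Ust, Malrd1, Col14a1 and Dlgap2 had 6 or 7 BMDM-only regions without any promoter call. Clec1b, a C-type lectin gene next to Clec9a, held 5 BMDM-only regions in its body and flanks. For PIM the count was led by the predicted gene Gm20388, which spans several Mb and other genes (109 PIM-only regions), and by Fgfr2 (54) and Macrod2 (47). Fgfr2 is annotated over chr7:130162451-133123350, so its count too comes from a very long interval and is not read as belonging to that gene alone. Pde4d, a cyclic AMP phosphodiesterase gene, had 26 PIM-only, 5 BMDM-only and 15 shared regions, and Foxp1, a transcription factor gene, had 24, 2 and 16. Etv6, a transcriptional repressor needed for blood cell development, had 25 PIM-only, 0 BMDM-only and 11 shared regions, Tiam1 had 23, 0 and 3, and Creb5 had 20, 0 and 12. The largest promoter peaks of BMDM alone included those of Ccdc54 (rank 1272), Clec9a (1376), Slmap, Pilrb2, Prss30, Fam234a and Xrra1. Those of PIM alone included Cdc42bpg (rank 58), Dusp27 and Gpa33, which share 1 peak (60), Gm49369 (105), Ninj2 (112), Gpr137b (119) and Slc29a3 (161). The Gm49369 peak was the one that also covered the promoter of Ctsd. Among the BMDM peaks named here, at least that of Ccdc54 met a PIM peak outside the promoter, so its region is shared. Of the PIM peaks named here, all but that of Slc29a3 met a BMDM peak further along. Over all 4365 promoters called in PIM alone, this held for 154 (3.53%).

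Sequence motifs were counted in the 300-bp windows on the signal maximum, on both strands. PU.1 was searched as GAGGAAGT, AP-1 as TGANTCA, C/EBP as TTGCNNAA, IRF as GAAANNGAA and RUNX as TGTGGTT. Among all RefSeq promoters of the same length (31387), PU.1 letters were found in 3.25%, AP-1 in 7.85%, C/EBP in 10.9%, IRF in 8.53% and RUNX in 5.32%. No motif contains another, though matches of different motifs can share bases. In distal windows of the 5000-peak classes, PU.1 stood in 14.1% (12.4 to 16.0) of BMDM-only, 8.62% (7.17 to 10.3) of PIM-only and 12.8% (11.2 to 14.5) of shared windows at the BMDM maximum. AP-1 stood in 27.7% (25.4 to 30.1) of BMDM-only, 51.6% (48.8 to 54.4) of PIM-only and 44.6% (42.1 to 47.0) of shared windows. The 2 motifs thus went in opposite directions between the one-sided classes. C/EBP was found in 22.3% (20.2 to 24.5) of BMDM-only and 14.8% (12.9 to 16.9) of PIM-only windows. RUNX was found in 14.7% (12.97 to 16.7) and 9.61% (8.08 to 11.4), and IRF in 13.4% (11.8 to 15.3) and 8.29% (6.87 to 9.98).

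The direction was the same within shared regions when the window was moved from the BMDM to the PIM maximum, though by less: AP-1 went from 44.6% to 48.6% and PU.1 from 12.8% to 10.6%, with intervals that overlap. Over all windows of the full lists, promoter and distal, AP-1 was found in 16.5% of BMDM-only, 25.7% of PIM-only and 29.5% of shared windows at the BMDM maximum, and PU.1 in 8.81%, 6.79% and 11.4%. Shared windows were thus the highest for both motifs there. The 6 other cell types were set beside the 5000-peak classes with 5000 peaks per list as well, a choice made after seeing the data. Their distal windows held PU.1 in 1.97% to 3.77%, below the 3 macrophage classes. AP-1 ranged from 9.96% in adipocytes to 61.2% in myoblasts, so the AP-1 share of PIM-only windows was within the range of cells that are no macrophages. BMDM-only windows had a lower GC content than PIM-only windows in the full lists (45.7% and 50.3%), and the part of base composition in these shares was not tested. A match says only that the letters are in the window.

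**Figure D5:**
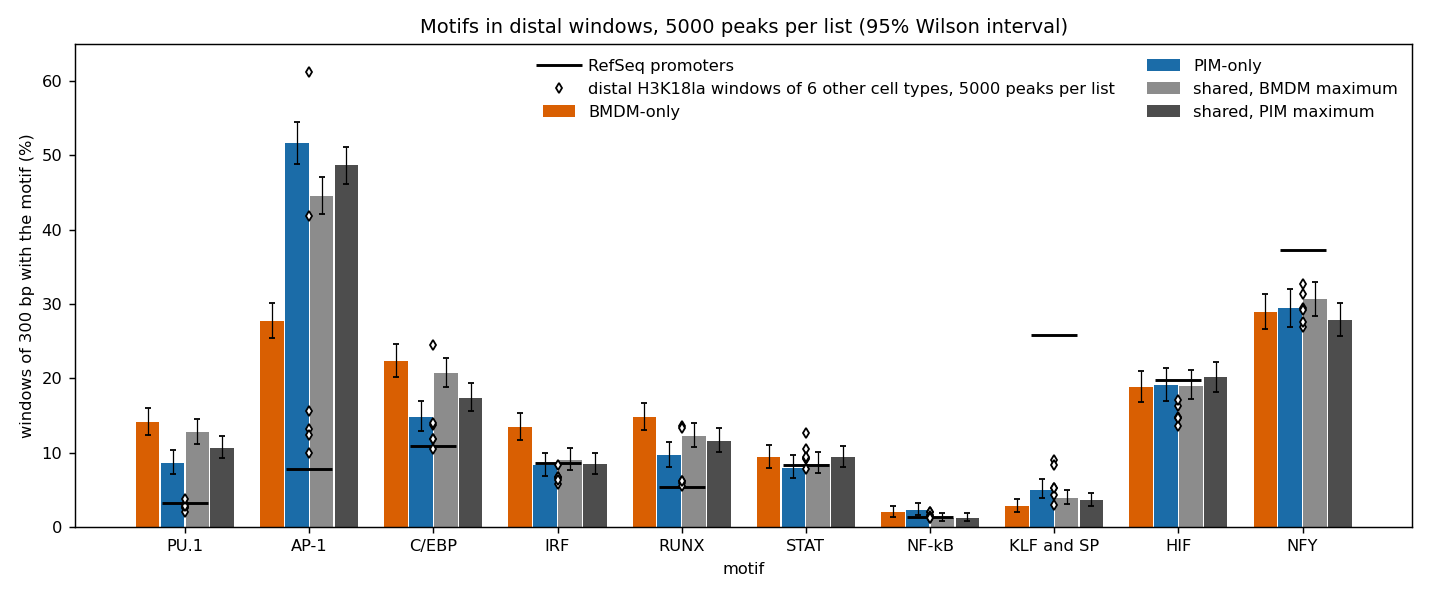
Percent of distal 300-bp windows that hold each motif, by class with 5000 peaks per list (bars with 95% Wilson intervals), in the 6 other cell types with 5000 peaks each (diamonds) and in all RefSeq promoters (black lines). AP-1 is higher in PIM-only (51.6%) than in BMDM-only windows (27.7%), and PU.1, C/EBP, RUNX and IRF are higher in BMDM-only windows.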

How the data were processed

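Of the 24 deposited CUT&Tag peak lists, 1 for each mouse group of cell type and mark, 13 were used (nuclei, or whole cells for ESC). Per the authors' methods and the submitters' processing notes, reads were trimmed (Trim Galore 0.6.6), aligned to mm10 with Bowtie2 2.4.4, converted to fragment coverage (bedtools 2.30), pooled over replicates, and called as peaks with SEACR 1.3 in stringent mode at the top 1% of regions. The deposited lists give total and maximum signal of each peak. All values were whole numbers, so coverage was unscaled. The authors removed blacklisted peaks in their own analysis, and whether the deposited lists precede that step is not given in the sources used here.

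Python 3.11.15, numpy 2.4.6, pandas 2.3.3, scipy 1.17.1, matplotlib 3.10.9 and pysam 0.24.0 were used. Peaks that overlapped by at least 1 bp were merged on chromosomes 1 to 19. Interval counts equalled those of bedtools 2.31.1 in 20 of 20 simulated pairs of lists. Genes were those of GENCODE M21 (20807 protein-coding genes), and genome sequence was NCBI GRCm38.p6. Of 325 list entries 324 were found on these chromosomes. Where peaks tied in signal at the 5000-peak limit, their order along the genome decided.

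Each class was named by its 6 regions of largest signal (for shared regions by the worse of both ranks), and genes by the most one-sided regions, by the largest one-sided promoter peak, and by list membership. The regions and lists were chosen with earlier results of these data known. Alternatives were the 5000-peak lists by total or maximum signal, a PIM list of equal bases, a 50% overlap, merging within 1000 bp, chromosome X, other promoters, equal H3K27ac bases and 200-bp windows. Some genes that the naming rule gave are not reported here.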

Additional observations from a re-analysis of the deposited data

How the results depend on the processing

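The shares of BMDM-only, PIM-only and shared regions among the full lists (10.5%, 52.8% and 36.7%) became 27.4%, 34.0% and 38.6% with 5000 peaks of largest total signal per list, and 29.6%, 35.0% and 35.4% with 5000 of largest maximum signal. They became 75.7%, 2.77% and 21.6% with the PIM list cut to the BMDM bases, and 9.70%, 50.6% and 39.7% with peaks within 1000 bp merged. With an overlap of 50% of the shorter peak BMDM-only was 11.2% and shared 35.9%. Promoter shares in the same class order (21.1%, 39.6% and 38.6%) became 25.8%, 47.9% and 41.1% with 5000 peaks, 30.2%, 49.8% and 44.0% with equal bases, 15.6%, 34.0% and 34.2% where a promoter reached 1000 bp from the TSS, and 12.4%, 29.2% and 26.9% with protein-coding TSS. With 50% overlap PIM-only fell to 35.5% and shared to 32.5%, and merging gave 19.4% for BMDM-only and 40.8% for shared. The excess of BMDM over PIM H3K27ac at BMDM-only regions (4.85 percentage points) was 15.6 with 5000 peaks, 3.22 with merging, 0.24 with H3K27ac lists of equal bases and -1.31, a reversed sign, with the PIM list of equal bases. The excess of PIM over BMDM H3K27ac at PIM-only regions (19.8) was 31.9, 21.9, 25.3 and 50.8 in these settings and 16.4 with 50% overlap. Genes with a promoter peak in BMDM alone (285) numbered 2733 with equal bases, those in PIM alone (4365) 954 with 5000 peaks and 243 with equal bases, and those in both (3666) 708 and 1218. With 5000 peaks 34.2%, 16.3% and 14.6% of BMDM-only, PIM-only and shared regions met none of the other cell types. PU.1 was found in 6.72% (BMDM-only), 5.14% (PIM-only) and 9.35% (shared) of 200-bp windows and in 14.2%, 8.39% and 13.7% of windows with 5000 peaks. AP-1 was found in 13.4%, 21.3% and 25.1%, and in 25.3%, 45.6% and 39.2%. The cause of these moves was not tested. Among all recomputed values of these quantities, 19 stayed within the interval of the reported value or within 1.5 times a reported count, 58 moved and 1 reversed. Of the shares of regions with another mark or cell type and of windows with a further motif, 12 stayed and 75 moved. Leaving out the 43 regions called in every list, a choice made after seeing the data, moved none of the 8 values tried beyond the interval. No paired analysis was possible because the replicates were pooled before peak calling, for which reason no replicate could be left out either. The lists give no reads per sample, so a place without a peak is one where none was called at this depth.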
